A study of Mus musculus with 6 samples.

Results

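Transcripts of glycolysis, the pathway that splits glucose into pyruvate and lactate, and of the response to low oxygen were followed in the large intestine of mice with inflammatory bowel disease (IBD). The 34 genes were chosen by name, with earlier results of these data known: 16 glycolytic enzymes and 3 regulators of glycolysis, and 15 genes of the hypoxia response. All 34 were found among the 35434 genes of the deposited table, and all 34 passed the filter on low values that left 12525 genes for testing. The mice had received either control regulatory T cells (Tregs) or Tregs treated with lenvatinib, an inhibitor of several receptor tyrosine kinases. By their titles 3 libraries belong to int 3 and 3 to int 2, and which transfer lies behind which title is not given. All differences below are int 3 minus int 2, without naming a treatment for one or the other. The sources used here give no strain, age or sex and no way in which the disease was induced.

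Glycolysis runs in the cytosol of every cell. Hexokinases trap glucose, phosphofructokinases commit it to the pathway, and lactate dehydrogenases turn the resulting pyruvate into lactate when it is not burnt in mitochondria. Hypoxia-inducible factors (HIFs) are transcription factors whose alpha subunits are marked for destruction by prolyl hydroxylases as long as oxygen is present. When oxygen is scarce they accumulate and raise most glycolytic genes together with genes for vessel growth, mitochondrial clearance and pH control. The epithelium of the large intestine borders an almost oxygen-free lumen and is known for a steady low-grade HIF response.

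The libraries were of even depth, and int 3 was the less uniform group. The steps in the FPKM values (fragments scaled by gene length and by library depth) gave totals of 34022000 to 35061000 fragments in int 3 and 34162000 to 34448000 in int 2. Between 79 fragments (Aldoa) and 35701 fragments (Ldha) stood behind each member's value in a library. All 14 epithelial markers of the large intestine were at FPKM 1 or more in all 6 libraries, and all 8 markers of squamous epithelium were below 1. The median coefficient of variation over the tested genes was 11.3% in int 3 and 3.97% in int 2, and int 3-1 lay between int 3-2 and int 3-3 for 73.5% of them. The level of Hoxb13, which marks the distal end of the gut, was 146, 16.4 and 267 FPKM across int 3-1, int 3-2 and int 3-3, and 288, 285 and 288 FPKM across int 2. Hoxd13, another such marker, lay on both sides of int 2, at 14.2, 0.286 and 26.4 FPKM against 11.1, 10.1 and 9.80. Of 9 regional markers 6 could be tested, Hoxb13 and Hoxd13 among them, and none passed the limma test between the groups. Hoxb13 was lower in every int 3 library than in int 2 (log2 difference -1.71, SE 0.95), and the SE of Hoxd13 was 1.08. With such scatter the test cannot show that the groups match in gut position. Whether each library represents its own mouse is not given and was not tested. Every p-value here thus reflects only how much these libraries scatter, and cannot be taken to measure variation between mice. At its smallest the scatter of a member within int 2 was 0.39% (Ndrg1, with 4268, 4256 and 4239 fragments). These are whole-tissue samples, in which fewer cells of a type and less RNA per cell cannot be told apart.

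Glycolytic transcripts rose in int 3 at most steps of the pathway, and so did part of the hypoxia response. Of the 34 genes 20 rose in int 3 at an adjusted p under 0.05 (limma, Benjamini-Hochberg adjustment over all tested genes), against 8.64% of all tested genes. None of the 34 fell, against 6.7% of all tested genes (0 at an unadjusted p under 0.05, and 0 with limma voom on whole fragments). In 24 of the 34 genes every int 3 library stood above every int 2 library, which held for 22.4% of all tested genes. The list was chosen with earlier results of these data known, so its counts describe it and do not test it against all genes. The median log2 difference was 0.31 over the 34 genes and 0.03 over all tested genes, on the log2(FPKM + 1) scale used throughout. The rises were mostly small, between 0.19 for Hk1 and 1.496 for Slc16a3, and only Bnip3 passed a test against a 1.5-fold change (adjusted p = 0.0055). Each of the 20 kept its direction under every scaling and with each library left out. Over all tested genes 1082 rose and 839 fell, and with each library rescaled to the same FPKM sum (TPM) 1269 rose and 618 fell.

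**Figure D1:**
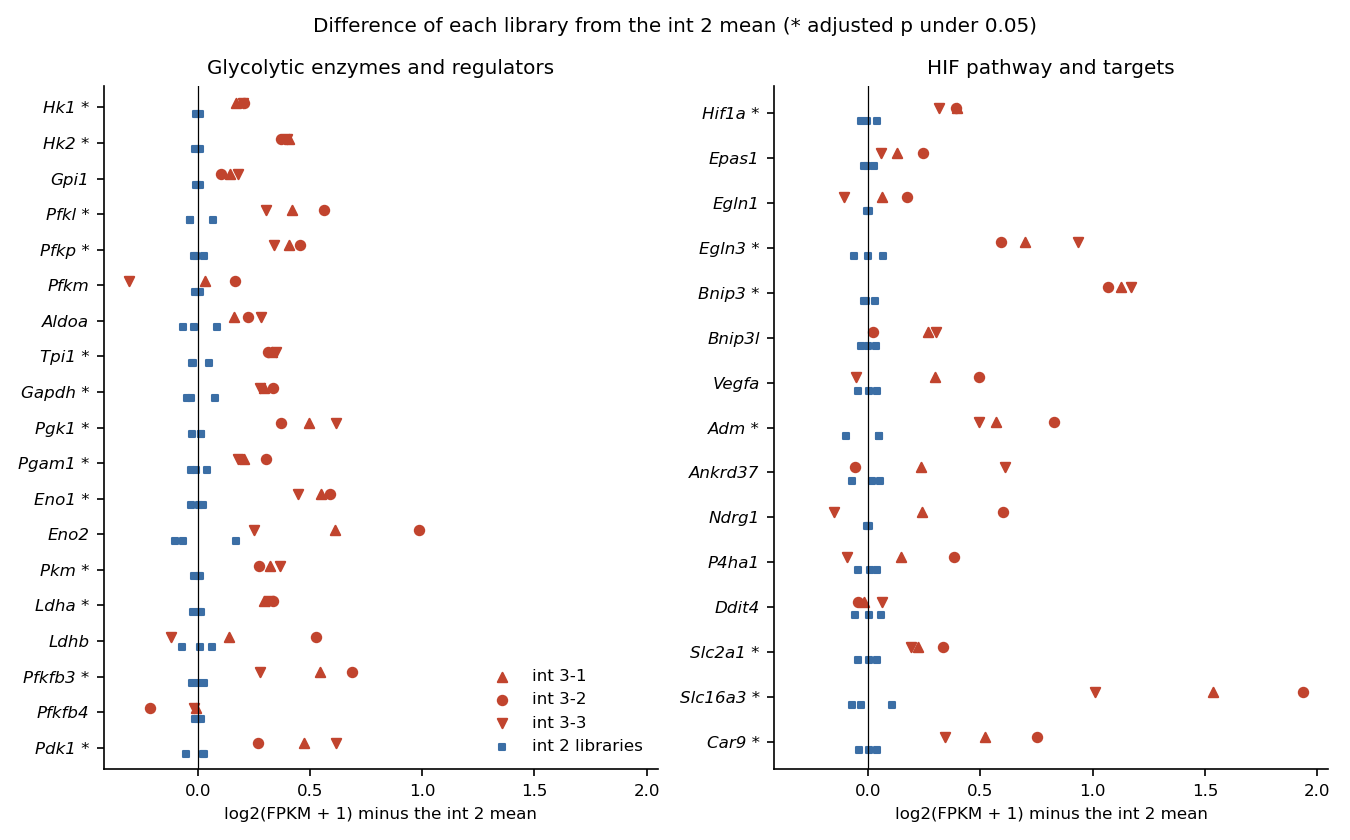
Difference of each library from the int 2 mean on the log2(FPKM + 1) scale, for glycolytic genes on the left and hypoxia genes on the right. Red symbols are the 3 int 3 libraries, blue squares the 3 int 2 libraries, and an asterisk marks the 20 genes at an adjusted p under 0.05; the red symbols of Bnip3 and Slc16a3 lie farthest to the right.

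Among the 16 glycolytic enzymes 11 rose and 5 did not pass. Added up, they came to 1681, 1679.6 and 1689 FPKM for int 3-1, int 3-2 and int 3-3, against 1331, 1314 and 1312 FPKM in int 2-1, int 2-2 and int 2-3. On the FPKM scale the int 3 sums were nearly equal to each other and exceeded the int 2 sums by 27.6% on average (1683 ± 4.85 against 1319 ± 10.25 FPKM, SD, n = 3 each). The FPKM sum over all genes was less even, at 507315, 490383 and 526380 in int 3-1, int 3-2 and int 3-3, so this evenness belongs to the FPKM scale. Of the 19 glycolysis genes, regulators included, 13 rose, with a median log2 difference of 0.32. That count was 5, 14 and 14 without int 3-1, int 3-2 and int 3-3, and 6, 4 and 4 without int 2-1, int 2-2 and int 2-3. Over all tested genes the number that rose moved the same way, from 1082 with all libraries. It was 372, 1432 and 3124 without int 3-1, int 3-2 and int 3-3, and 379, 374 and 385 without int 2-1, int 2-2 and int 2-3. Eno1, Hk2 and Pfkp passed in all 6 of these repeats.

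The hexokinases, which phosphorylate glucose as it enters the cell, were both higher. Hk2, the form that HIF induces, stood at 22.9, 22.3 and 22.7 FPKM in the int 3 libraries and 17.1, 16.9 and 17.0 in the int 2 libraries. Its groups were well apart, with a log2 difference of 0.39 (SE 0.04, adjusted p = 0.0033). Hk1, the broadly expressed form, was at 28.1, 28.8 and 28.7 FPKM in int 3 and 25.0, 24.7 and 24.7 in int 2 (log2 difference 0.19, SE 0.04, adjusted p = 0.03). Hk2 made up 44.2 ± 0.630% of the summed Hk1 and Hk2 level in int 3 and 40.7 ± 0.154% in int 2 (SD, n = 3 each), and these shares did not overlap. The rise of Hk1 was lost (adjusted p up to 0.14) without int 3-1 or any of the int 2 libraries.

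Gpi1, the isomerase that follows, was at 209.5, 204 and 215 FPKM in int 3 and 189, 189.8 and 191 in int 2. The int 3 values were all higher, but the difference of 0.14 did not pass (SE 0.05, adjusted p = 0.089). Phosphofructokinase, the committed step, comes in a liver, a platelet and a muscle form. Pfkl, the liver form, had 40.3, 44.5 and 37.1 FPKM in int 3 and 29.1, 31.3 and 29.1 in int 2 (log2 difference 0.43, SE 0.08, adjusted p = 0.016). Pfkp, the platelet form, had 36.7, 38.0 and 35.0 FPKM in int 3 and 27.3, 28.0 and 27.1 in int 2 (log2 difference 0.40, SE 0.05, adjusted p = 0.0049). The muscle form Pfkm, the scarcest of the 3 forms, stood at 6.87, 7.62 and 5.21 FPKM in int 3, on both sides of the 6.74, 6.63 and 6.69 FPKM of int 2 (log2 difference -0.04, SE 0.12, adjusted p = 0.86). Its share of the summed phosphofructokinase level was 7.80 ± 0.921% in int 3 and 10.5 ± 0.347% in int 2 (SD, n = 3 each), without overlap. The rise of Pfkl did not pass without int 3-1 or any of the int 2 libraries (adjusted p up to 0.084).

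Triose phosphates are handled by Tpi1, which interconverts them, and Gapdh, which oxidises glyceraldehyde phosphate. Tpi1, the most abundant member, stood at 409.6, 404 and 414 FPKM in int 3 and 337, 320.1 and 319 in int 2, with the groups well apart (log2 difference 0.33, SE 0.05, adjusted p = 0.0088). Gapdh, often used as a reference gene of constant level, was at 35.6, 36.6 and 35.2 FPKM in int 3 and 27.9, 30.4 and 28.2 in int 2 (log2 difference 0.30, SE 0.05, adjusted p = 0.014). Both passed in only 3 of the 6 repeats with 1 library left out. Aldoa, the aldolase that yields the triose phosphates, was listed at 1.62, 1.74 and 1.86 FPKM in int 3 and 1.49, 1.24 and 1.32 in int 2 (log2 difference 0.22, adjusted p = 0.11). These levels of Gapdh and Aldoa lie far below those of Tpi1 and Pgk1 on the same per-length scale. Gapdh has many pseudogene copies in the mouse, the GENCODE M21 annotation of GRCm38 holds 2 genes named Aldoa, and the sources used here do not say how fragments that match several places were treated. The levels of both are uncertain, and whether any of this lies behind the low values was not tested.

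The later steps, among which ATP is made, held the largest rises of the pathway. Pgk1, phosphoglycerate kinase, had 243, 223 and 264 FPKM in int 3 and 174, 169 and 174 in int 2 (log2 difference 0.49, SE 0.07, adjusted p = 0.0075). It was highest in int 3-3 and lowest in int 3-2 within its group, and narrowly missed the threshold without int 2-2 (adjusted p = 0.051). Pgam1, phosphoglycerate mutase, had 60.6, 64.8 and 59.5 FPKM in int 3 and 53.9, 52.0 and 51.3 in int 2 (log2 difference 0.23, adjusted p = 0.034), and lost its call without int 3-1 or any int 2 library (adjusted p up to 0.15). Eno1, the main enolase, showed the largest rise among the enzymes that passed. It stood at 251, 258 and 234 FPKM in int 3 and 168, 172 and 174 in int 2, and its groups were far apart (log2 difference 0.53, SE 0.06, adjusted p = 0.0028). A retrogene copy, Eno1b, was listed at only 1.42, 2.32 and 1.95 FPKM in int 3 and 1.91, 1.40 and 1.80 in int 2. Eno2, the enolase of neurons and neuroendocrine cells, was uneven in int 3 at 5.94, 7.99 and 4.404 FPKM, against 4.11, 3.35 and 3.23 in int 2, and did not pass although the groups did not overlap (log2 difference 0.61, SE 0.19, adjusted p = 0.079). Pkm, the pyruvate kinase gene of most tissues, had 121, 117 and 124 FPKM in int 3 and 97.1, 96.7 and 95.3 in int 2 (log2 difference 0.32, SE 0.05, adjusted p = 0.0077). Its call was lost without int 3-1 or any int 2 library (adjusted p up to 0.057).

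Lactate dehydrogenase closes the pathway. Ldha, the form that favours lactate formation, had 188, 193 and 191 FPKM in int 3 and 155, 154 and 150.3 in int 2, and rose by 0.32 on the log2 scale (SE 0.04, adjusted p = 0.0067). The call of Ldha was lost, just above the threshold, without int 2-2 or int 2-3 (adjusted p up to 0.054). Ldhb, the form that favours the reverse reaction, was at 21.1, 27.9 and 17.5 FPKM in int 3, around the 19.2, 18.1 and 19.96 FPKM of int 2 (log2 difference 0.18, SE 0.16, adjusted p = 0.47). Ldha made up 89.6 ± 2.13% of the pair in int 3 and 88.9 ± 0.590% in int 2 (SD, n = 3 each), and these shares overlapped.

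**Figure D2:**
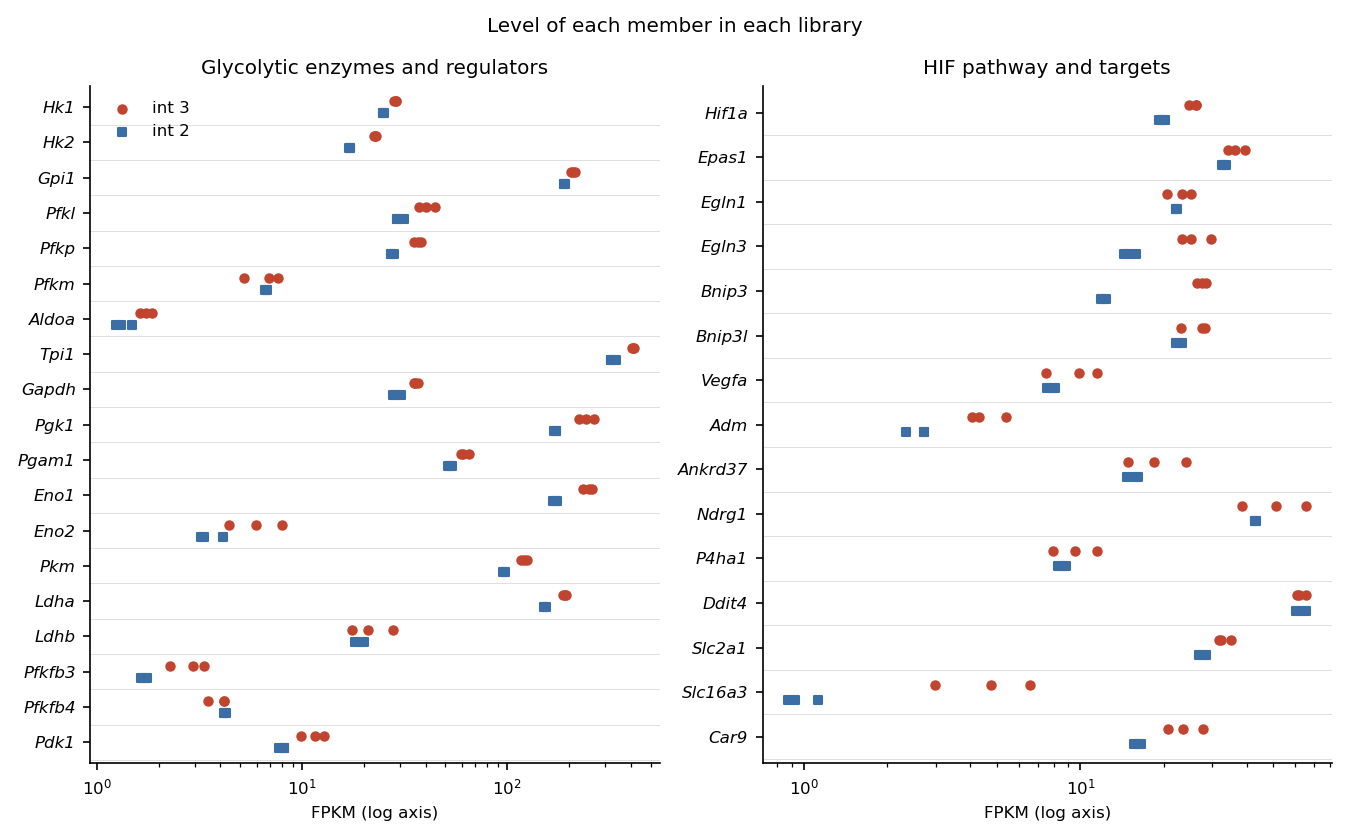
FPKM of each member in each library on a log axis, with glycolytic genes on the left and hypoxia genes on the right. Red circles are the 3 int 3 libraries and blue squares the 3 int 2 libraries; for Tpi1, Pkm and Ldha each group forms a tight cluster with int 3 higher, whereas Eno2, Ndrg1 and Slc16a3 are spread out in int 3.

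Of the regulators 2 rose. Pfkfb3, which makes the sugar phosphate that activates phosphofructokinase, had 2.94, 3.34 and 2.26 FPKM in int 3 and 1.64, 1.69 and 1.75 in int 2 (log2 difference 0.50, SE 0.11, adjusted p = 0.033). Pdk1, the kinase that shuts off pyruvate dehydrogenase and so keeps pyruvate out of the mitochondria, had 11.5, 9.85 and 12.8 FPKM in int 3 and 8.20, 8.17 and 7.70 in int 2 (log2 difference 0.45, SE 0.10, adjusted p = 0.027). These increases ran in opposite orders within int 3, with int 3-2 highest for Pfkfb3 and lowest for Pdk1. Pfkfb4, a relative of Pfkfb3, was at 4.18, 3.49 and 4.16 FPKM in int 3 and 4.17, 4.27 and 4.22 in int 2, with overlapping groups (log2 difference -0.08, adjusted p = 0.5). Neither Pfkfb3 nor Pdk1 passed without int 3-1 or any int 2 library (adjusted p up to 0.13).

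In the hypoxia set 7 of 15 genes rose and 8 did not pass, with a median log2 difference of 0.25. The count was 3, 9 and 11 without int 3-1, int 3-2 and int 3-3, and 3, 3 and 4 without int 2-1, int 2-2 and int 2-3. Bnip3, Egln3 and Hif1a passed in all 6 of these repeats. Hif1a, the HIF alpha subunit present in most cells, had 26.3, 26.2 and 24.8 FPKM in int 3 and 20.3, 19.3 and 19.6 in int 2 (log2 difference 0.37, SE 0.05, adjusted p = 0.0063). Control of this subunit is known to act mainly on the protein, which was not measured. Epas1, the alpha subunit prominent in vessels, was at 36.1, 39.3 and 34.3 FPKM in int 3 and 32.5, 32.8 and 33.7 in int 2, a difference of 0.14 that did not pass (SE 0.06, adjusted p = 0.17).

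The prolyl hydroxylases that mark HIF for destruction differed from each other. Egln3, itself a strong HIF target, stood at 25.1, 23.3 and 29.7 FPKM in int 3 and 15.9, 14.4 and 15.1 in int 2, with the groups far apart (log2 difference 0.74, SE 0.10, adjusted p = 0.0056). Egln1, the main oxygen sensor of the family, was at 23.2, 25.1 and 20.6 FPKM in int 3, on both sides of the 22.3, 22.2 and 22.1 FPKM in int 2 (log2 difference 0.04, SE 0.08, adjusted p = 0.73).

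Bnip3, a mitochondrial protein that starts the removal of mitochondria, showed the most uniform strong rise of the set. Its level was 27.6, 26.4 and 28.4 FPKM in int 3 and 12.0, 12.4 and 11.9 in int 2, a 2.27-fold ratio of the group means (log2 difference 1.12, SE 0.05, adjusted p = 0.00017). Its relative Bnip3l, with the same role, was at 27.6, 23.1 and 28.4 FPKM in int 3 and 22.8, 23.4 and 22.3 in int 2, and the groups overlapped through int 3-2 (log2 difference 0.20, adjusted p = 0.17). A pseudogene of Bnip3l was listed at 4.002, 3.90 and 4.80 FPKM in int 3 and 2.99, 2.95 and 2.57 in int 2. This copy rose (log2 difference 0.45, adjusted p = 0.025), and how fragments that match it and Bnip3l were treated is not given.

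Transporters and pH genes of the HIF programme also rose. Slc16a3 encodes MCT4, the lactate exporter of glycolytic cells. Its level was 4.73, 6.56 and 2.98 FPKM across the int 3 libraries, against 0.929, 0.877 and 1.12 FPKM in int 2, a 4.87-fold ratio of the group means (log2 difference 1.496, SE 0.23, adjusted p = 0.0092). All 3 int 3 libraries were above int 2, but they differed more than 2-fold among themselves, and the call was lost without int 3-1, int 2-1 or int 2-2 (adjusted p up to 0.053). Slc2a1, the glucose importer GLUT1, had 32.4, 35.1 and 31.7 FPKM in int 3 and 27.8, 26.8 and 28.5 in int 2 (log2 difference 0.25, adjusted p = 0.035). Car9, the membrane carbonic anhydrase IX, had 23.5, 27.9 and 20.7 FPKM in int 3 and 16.2, 16.6 and 15.6 in int 2 (log2 difference 0.54, SE 0.11, adjusted p = 0.021). Neither Slc2a1 nor Car9 passed without int 3-1 or any int 2 library (adjusted p up to 0.15).

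Among the secreted and vascular targets only Adm passed. Adm, the vasodilator peptide adrenomedullin, had 4.31, 5.36 and 4.05 FPKM in int 3 and 2.34, 2.71 and 2.71 in int 2 (log2 difference 0.63, SE 0.10, adjusted p = 0.013, and up to 0.067 without int 3-1 or any int 2 library). Vegfa, the main growth factor of blood vessels, was at 9.86, 11.5 and 7.52 FPKM in int 3 and 7.87, 8.09 and 7.57 in int 2, and int 3-3 lay just below the int 2 range (log2 difference 0.25, SE 0.14, adjusted p = 0.26). Endothelial markers had the same library order, as did 49.6% of all tested genes. The sum of 10 of them was 189, 241 and 139 FPKM in int 3-1, int 3-2 and int 3-3 and 114 to 120.3 FPKM in int 2. Of the 10, 2 rose (0 to 9 with 1 library left out), against 8.64% of all tested genes. Cldn5 went the other way, at 8.63, 9.15 and 7.07 FPKM in int 3 and 10.1, 10.5 and 10.7 in int 2, and did not pass. The part of endothelial cells in the levels of Epas1, Adm and Vegfa was not tested.

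The remaining targets did not pass, and the groups overlapped for each. Ndrg1, a stress-induced cytoplasmic protein, was at 50.9, 65.6 and 38.5 FPKM in int 3 and 43.1, 42.8 and 42.9 in int 2, with int 3-2 above and int 3-3 below int 2 (adjusted p = 0.41). P4ha1, a collagen prolyl hydroxylase subunit, had the same order at 9.59, 11.5 and 7.97 FPKM in int 3, against 8.85, 8.29 and 8.62 in int 2 (adjusted p = 0.45). Ankrd37, an ankyrin repeat protein, ran the other way, with 18.5, 14.8 and 24.2 FPKM in int 3 and 14.7, 15.7 and 16.1 in int 2 (adjusted p = 0.31). Ddit4, an inhibitor of mTOR signalling also known as REDD1, stood at 61.9, 60.7 and 65.5 FPKM in int 3 and 62.8, 65.3 and 60.2 in int 2, with the smallest difference of the 34 genes (log2 difference -0.0011, SE 0.05, adjusted p = 0.99).

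**Figure D3:**
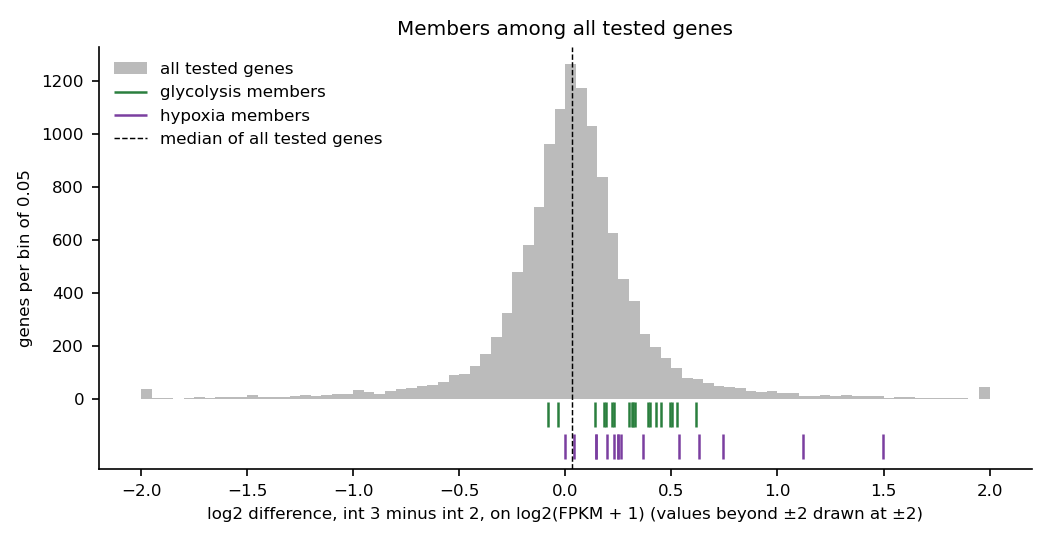
Histogram of the log2 difference, int 3 minus int 2, of the 12525 tested genes (grey bars, genes per bin), with the 19 glycolysis members as green and the 15 hypoxia members as purple ticks under it. The dashed line is the median of all tested genes at 0.03; 31 of the 34 ticks lie right of 0.

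HIFs bind DNA at a core that reads ACGTG, or with a different first base GCGTG, so the promoters of 5 members are shown, from the RefSeq table of build GRCm38.p6. They are those of Bnip3, Slc16a3 and Egln3 (the largest rises of the hypoxia set), of Pgk1 (the glycolytic enzyme after Eno1 by size of rise) and, for contrast, of Ddit4, which had the smallest difference. Each is the 250 bases before the annotated start, on the strand of the gene and 5′ to 3′, with both core motifs in capitals, read on either strand (the first is CACGT as its reverse complement, the second likewise CACGC). Matches may overlap, and a palindrome made of both strands' copies counts on each strand. The windows lie at chr7:138909507-138909756 (minus strand) for Bnip3, chr11:120948817-120949066 (plus strand) for Slc16a3, chr12:54203875-54204124 (minus strand) for Egln3, chrX:106186850-106187099 (plus strand) for Pgk1 and chr10:59951771-59952020 (minus strand) for Ddit4.
Bnip3: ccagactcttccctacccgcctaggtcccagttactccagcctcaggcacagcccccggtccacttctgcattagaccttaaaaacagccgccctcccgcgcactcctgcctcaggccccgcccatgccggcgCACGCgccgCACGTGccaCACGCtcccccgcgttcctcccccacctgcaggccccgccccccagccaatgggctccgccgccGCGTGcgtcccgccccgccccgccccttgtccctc
Slc16a3: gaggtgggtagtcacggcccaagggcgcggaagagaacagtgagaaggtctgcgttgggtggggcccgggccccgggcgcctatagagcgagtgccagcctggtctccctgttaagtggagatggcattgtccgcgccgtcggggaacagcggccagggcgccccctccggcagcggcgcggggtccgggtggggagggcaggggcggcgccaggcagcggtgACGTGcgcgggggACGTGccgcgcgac
Egln3: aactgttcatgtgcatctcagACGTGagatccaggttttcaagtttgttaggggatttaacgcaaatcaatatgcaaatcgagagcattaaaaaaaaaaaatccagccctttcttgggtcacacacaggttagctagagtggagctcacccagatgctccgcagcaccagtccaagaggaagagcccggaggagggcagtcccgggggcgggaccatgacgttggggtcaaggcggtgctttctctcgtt
Pgk1: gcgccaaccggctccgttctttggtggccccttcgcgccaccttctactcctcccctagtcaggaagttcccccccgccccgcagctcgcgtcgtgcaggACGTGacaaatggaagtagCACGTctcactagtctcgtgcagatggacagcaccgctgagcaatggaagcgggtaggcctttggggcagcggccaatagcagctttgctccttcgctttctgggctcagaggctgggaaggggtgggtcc
Ddit4: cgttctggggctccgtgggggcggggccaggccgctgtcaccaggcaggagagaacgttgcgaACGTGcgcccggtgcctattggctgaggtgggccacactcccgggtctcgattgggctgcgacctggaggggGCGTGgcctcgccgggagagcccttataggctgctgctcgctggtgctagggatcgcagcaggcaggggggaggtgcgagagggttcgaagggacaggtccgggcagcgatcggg
The windows held 5 matches for Bnip3, 2 for Slc16a3, 1 for Egln3, 2 for Pgk1 and 2 for Ddit4. A RefSeq promoter was found for 31 of the 34 members, with 44 windows in all. Of these windows 79.5% held at least 1 match, as did 54.9% of the 12598 windows of tested genes and 38.6% of all 32851 windows. A match is a run of letters, found in Bnip3, which rose, as well as in Ddit4, which did not pass, and not a measured binding site.

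Most other genes of the pathway did not pass. Among 22 further glycolytic genes and isoenzymes 13 could be tested, with a median log2 difference of 0.21. Of these 2 rose, against 8.64% of all tested genes, 2 fell, against 6.7%, and 9 did not pass. Counts this small are no result about the list. The risers were Pgm1, phosphoglucomutase (22.6, 22.6 and 22.5 FPKM in int 3, 17.4, 17.1 and 17.0 in int 2, adjusted p = 0.0038), and Bpgm, bisphosphoglycerate mutase (39.6, 45.4 and 36.0 FPKM in int 3, 27.3, 27.9 and 25.1 in int 2, adjusted p = 0.012). Among those that fell, Galm, an enzyme of galactose use, was at 17.5, 12.4 and 21.2 FPKM in int 3, against 29.2, 27.7 and 27.3 in int 2 (adjusted p = 0.043). Bpgm and Galm lost their calls without int 3-1 or any int 2 library (adjusted p up to 0.066 and 0.15), where 1 gene of the list rose and 1 fell. In the repeats without int 3-2 and int 3-3, 4 and 6 genes of it rose and 3 fell. Of all 12525 tested genes 1432 and 3124 rose there, and 1201 and 1789 fell. Eno3, the muscle enolase, named after its values were seen, was at 17.8, 7.42 and 25.6 FPKM in int 3 and 30.3, 29.4 and 31.8 in int 2 and did not pass (adjusted p = 0.15). It made up 6.29 ± 3.49% of the summed enolase level in int 3 and 14.8 ± 0.408% in int 2 (SD, n = 3 each), without overlap. The sum of 10 smooth muscle markers was 4068 to 4669 FPKM in int 3 and 5052 to 5082 FPKM in int 2. That of 10 skeletal muscle markers was 19.7 to 23.7 FPKM in int 3 and 19.3 to 20.9 FPKM in int 2. The part of either muscle in the Eno3 level was not tested.

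Gluconeogenesis runs in the opposite direction, and most of its tested genes did not pass. Of 6 tested genes 2 fell, against 6.7% of all tested genes, and 4 did not pass. None rose, against 8.64% of all tested genes (0 at an unadjusted p under 0.05, and 0 with voom). The difference was positive in 2 of the 6, and counts this small are no result about the pathway. Pck1, the cytosolic enzyme that commits carbon to glucose synthesis, fell to 24.8, 22.1 and 25.5 FPKM in int 3, against 68.1, 69.2 and 67.7 in int 2 (log2 difference -1.47, SE 0.06, adjusted p = 0.00015). The groups were far apart, and the call held with each library left out. Pck2, its mitochondrial counterpart, fell to 15.3, 17.0 and 17.2 FPKM in int 3, against 21.2, 21.9 and 21.97 in int 2 (log2 difference -0.38, adjusted p = 0.011, and up to 0.068 without any 1 of the int 2 libraries). In the pentose phosphate pathway, which draws on the same glucose phosphate to make NADPH, 1 of 7 genes rose, against 8.64% of all tested genes, and 0 fell, against 6.7% (0 lower at an unadjusted p under 0.05, and 0 with voom). This was Pgd, which yields NADPH, at 134, 139 and 128 FPKM in int 3 and 81.5, 81.5 and 79.3 in int 2 (log2 difference 0.72, SE 0.05, adjusted p = 0.00076). With 1 library left out, 1 to 4 of the 7 rose and 0 to 1 fell. A count of 1 in 7 is no result about the pathway.

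In the list for the entry of pyruvate into mitochondria no gene was past the threshold. Of 12 tested genes of the pyruvate dehydrogenase complex, its other kinases, its phosphatases and the pyruvate carrier, limma called 0 (1 higher and 3 lower at an unadjusted p under 0.05, and 0 with voom). With 1 library left out, 0 to 1 of them rose and 0 to 4 fell. Among 9 tested further sugar and lactate transporters limma also called 0 (0 higher and 2 lower at an unadjusted p under 0.05, and 0 with voom), and leaving out 1 library gave 0 to 1 that rose and 0 to 3 that fell. Over all tested genes 15.3% were called in either direction, so 0 in a list of 12 or of 9 is no result about it. Slc16a1 encodes MCT1, which takes up lactate and short-chain fatty acids, and was named after its values were seen. It stood at 47.9, 35.2 and 58.8 FPKM in int 3 and 60.0, 59.6 and 60.0 in int 2, all lower in int 3, and did not pass (log2 difference -0.36, SE 0.17, adjusted p = 0.2). Slc16a3 made up 8.99%, 15.7% and 4.83% of the summed level of both lactate transporters in int 3-1, int 3-2 and int 3-3, against 1.53%, 1.45% and 1.84% in int 2-1, int 2-2 and int 2-3.

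**Figure D4:**
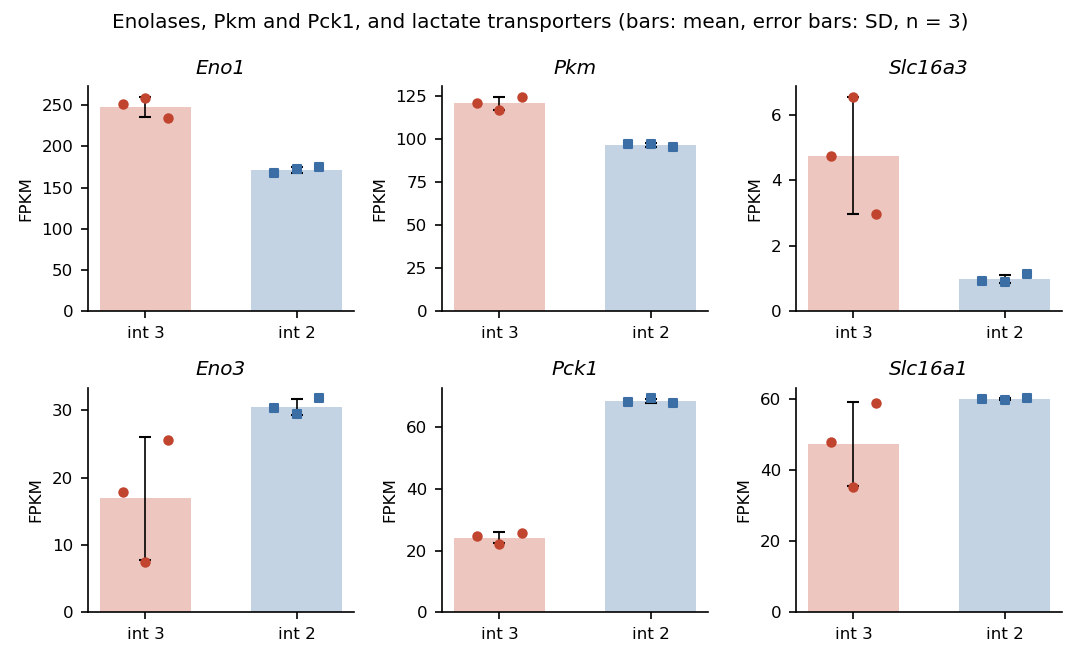
FPKM of 6 genes in int 3 (red, left) and int 2 (blue, right), with bars for the mean, error bars for the SD of 3 libraries and points for the libraries, on axes that start at 0. Eno1, Pkm and Slc16a3 in the upper row have higher means in int 3, and Eno3, Pck1 and Slc16a1 in the lower row have lower ones; Eno3 and Slc16a1 did not pass the test.

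Beyond the 15 hypoxia members, the components of the HIF machinery showed 0 calls among 10 tested genes (1 higher and 0 lower at an unadjusted p under 0.05, and 0 with voom). With 1 library left out, 0 to 1 of them rose. As 15.3% of all tested genes were called in either direction, 0 of 10 is no result about the machinery. Of 44 tested further HIF targets 12 rose, 4 fell and 28 did not pass, with a median log2 difference of 0.24. Over all tested genes 8.64% rose and 6.7% fell. Without int 3-1 or any int 2 library 9 of the 44 rose and 2 fell. Of all 12525 tested genes 372 to 385 rose and 241 to 270 fell in these repeats. Without int 3-3 24 of the 44 rose and 7 fell, and of all tested genes 3124 and 1789. Angptl4, a lipoprotein lipase inhibitor, stood at 4.56, 5.39 and 4.29 FPKM in int 3 and 1.40, 1.31 and 1.66 in int 2 (log2 difference 1.22, SE 0.10, adjusted p = 0.0012). Pim1, a survival kinase that cytokines also induce, was at 9.62, 11.8 and 10.5 FPKM in int 3 and 5.17, 5.25 and 4.97 in int 2 (log2 difference 0.92, adjusted p = 0.0015). Tfrc, the transferrin receptor for iron uptake, was at 70.8, 87.2 and 56.7 FPKM in int 3 and 27.9, 27.7 and 27.3 in int 2 (log2 difference 1.32, adjusted p = 0.0033). All 3 passed with each library left out.

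The 4 of 44 targets that fell were near the share of all tested genes (6.7%), which is no result about HIF targets as a set. Of these 4, Cxcr4, Cdkn1a and Edn1 had the smallest p-values. Cxcr4, a chemokine receptor abundant on lymphocytes, fell to 2.89, 1.92 and 3.76 FPKM in int 3, against 9.44, 9.42 and 9.65 in int 2 (log2 difference -1.47, adjusted p = 0.0039). Beside it the sum of 10 B cell markers was 5.27 to 46.5 FPKM in int 3 and 166 to 173 FPKM in int 2, all 10 fell (3 to 10 with 1 library left out), and their part in the Cxcr4 level was not tested. Cdkn1a, the cell cycle inhibitor p21, fell to 55.6, 53.5 and 58.9 FPKM in int 3, against 74.5, 73.7 and 74.3 in int 2 (adjusted p = 0.0052). Edn1, the vasoconstrictor endothelin, fell to 6.84, 5.61 and 7.53 FPKM in int 3, against 11.1, 10.7 and 10.5 in int 2 (adjusted p = 0.011, and up to 0.065 without int 3-1 or any int 2 library).

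The glycolytic enzymes were the more even set, with a median coefficient of variation of 4.36% in int 3 and 1.79% in int 2, against 12.8% in int 3 and 3.09% in int 2 for the hypoxia members. In 18 of the 34 genes (52.9%, against 49.6% of all tested genes) the order was int 3-2, int 3-1, int 3-3 from high to low, as for Slc16a3, Adm, Car9, Vegfa and Ndrg1. It was the reverse in 10 (29.4%, against 23.9% of all tested genes), as for Bnip3, Egln3, Pdk1, Pgk1 and Ankrd37. Both shares were near those of all tested genes. The members' median difference from the int 2 mean was 0.30, 0.35 and 0.29 in int 3-1, int 3-2 and int 3-3, while that of all tested genes was 0.04, 0.09 and -0.03. Mitochondrially encoded transcripts took 16.3%, 17.0% and 15.1% of the FPKM sum in int 3-1, int 3-2 and int 3-3, against 17.6% to 18.3% in int 2. With the libraries scaled without them the summed glycolytic enzymes were 31.4% higher in int 3.

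Markers of other cell types also differed, those of immune cells known to rely on glycolysis among them. Of 12 monocyte and macrophage markers 8 rose and 2 fell (7 to 9 and 1 to 2 with 1 library left out). The shares over all tested genes, for this and the counts below, were 8.64% that rose and 6.7% that fell. The markers' summed level was 385 to 486 FPKM in int 3 and 462 to 467 FPKM in int 2, most of it Lyz2. Lyz2, which fell, was at 234, 197 and 282 FPKM in int 3 and 331, 338 and 335 in int 2. Of 10 neutrophil markers 3 could be tested and 2 rose, S100a8 at 5.76, 10.5 and 3.86 FPKM in int 3 and 0, 0 and 0.224 in int 2, and S100a9 at 6.88, 12.7 and 2.23 in int 3 and 0, 0.0554 and 0.0559 in int 2. With 1 library left out 1 to 3 of these rose. The 10 markers summed to 77.2 to 162 FPKM in int 3 and 39.7 to 40.3 FPKM in int 2, almost all of it Ly6g. Ly6g was at 106, 51.8 and 155 FPKM in int 3 and 38.9, 39.7 and 39.3 in int 2, did not pass (adjusted p = 0.07), and had the opposite library order to S100a8 and S100a9. Elane was at 0 and Mpo and Ngp below 0.05 FPKM in all 6 libraries. Of 10 fibroblast markers 4 rose (Col1a1, Col1a2, Col3a1 and Pdgfra; 3 to 6 with 1 library left out) and 0 fell (0 at an unadjusted p under 0.05, and 0 with voom), and their sum was 561 to 646 FPKM in int 3 and 518 to 520.4 FPKM in int 2. Epithelial markers summed to 5281 to 5858 FPKM in int 3 and 5412 to 5448 FPKM in int 2, a sum led by Krt8 and Krt19. Of these 14 markers 2 fell (0 to 3 with 1 library left out) and 0 rose (1 at an unadjusted p under 0.05, and 0 with voom). Slc26a3, a chloride exchanger of surface epithelium, was at 36.4, 23.7 and 46.2 FPKM in int 3 and 74.2, 75.2 and 74.9 in int 2 (adjusted p = 0.023). Aqp8, a water channel of the same cells, was at 90.4, 67.3 and 108 FPKM in int 3 and 172, 174 and 169 in int 2 (adjusted p = 0.013). The difference was positive in 6 of the 14, and 2 that fell are no result about the epithelium. Muc2, of the same list, was at 274, 467 and 102 FPKM in int 3 and 94.2, 96.1 and 93.5 in int 2. It did not pass (adjusted p = 0.14). The part of these cells in the glycolytic levels was not tested.

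**Figure D5:**
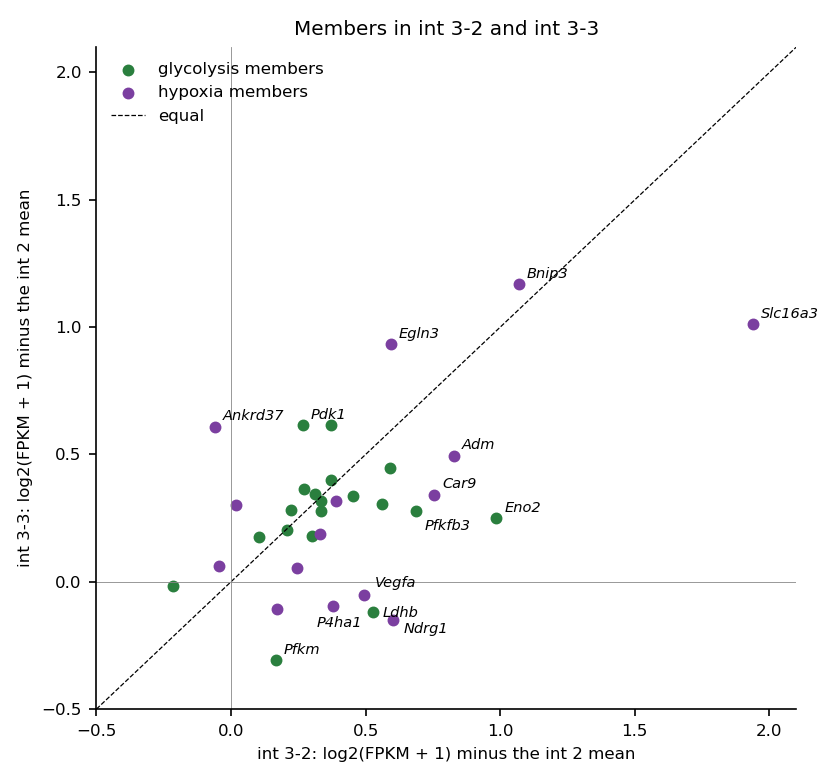
Difference from the int 2 mean in int 3-2 (horizontal) and in int 3-3 (vertical), on the log2(FPKM + 1) scale, for the 34 members; the dashed line marks equal differences. Most green points (glycolysis) lie near the line above 0, while Slc16a3, Eno2, Car9 and Ndrg1 lie below it and Egln3, Pdk1 and Ankrd37 above it.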

How the data were processed

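RNA from 6 mouse large intestine samples was extracted with TRIzol and sequenced from VAHTS libraries, per the labels. The deposited table holds FPKM values by the authors on build GRCm39, per the submitters' processing notes. Aligner, counter, annotation and strand handling are not given in the sources used here. Columns were tied to samples by title. A gene entered the test if 3 or more of its 6 values reached FPKM 1. Log2(FPKM + 1) values were compared by limma 3.58.1 (R 4.3.3; eBayes with trend, two-sided, Benjamini-Hochberg over 12525 genes, threshold 0.05), and "rose" and "fell" mean past it. This scale understates changes of low genes, and the model gives both groups 1 spread although int 3 varied more.

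FPKM steps gave whole fragments for 99.9% of tested genes (within 0.01 fragments), used for depth and for voom. Scripts were tested on simulated data, in which the share of false calls stayed under the threshold with equal spread and was well above it with the spread of each group, so an adjusted p under 0.05 is less strict here than it reads.

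The members and lists were chosen with earlier results of these data known. All 34 members are named, and of each further list up to 3 genes past the threshold in each direction, by smallest p; 1 such gene is not reported here. Alternatives were pseudocounts of 0.1 and 0.01, other filters and scalings, library weights, a robust prior, a 1.5-fold test, voom, a replicate block and each library left out.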

Additional observations from a re-analysis of the deposited data

How the results depend on the processing

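Of the 20 members that rose, 6 (Hk2, Pfkp, Eno1, Hif1a, Egln3 and Bnip3) passed with each library left out, and 9 in each of the 12 alternatives that kept all libraries, the 1.5-fold test apart. Adm and Slc16a3 passed in 11 of the 12 and were not tested at a mean FPKM of 5 or more. Glycolysis members that rose numbered 13, and 5 with the replicate block, 0 against a 1.5-fold change and 4 to 14 with 1 library left out. Hypoxia members that rose numbered 7, and 14 with library weights (which did not converge fully), 1 against a 1.5-fold change and 3 to 11 with 1 library left out. No member fell in any of these. The summed glycolytic enzymes were 27.6% higher in int 3, 34.04% with TPM and 31.4% scaled without mitochondrial genes. Over all genes 1082 rose and 839 fell. With the replicate block these counts were 516 and 373, with library weights 5450 and 3771, against a 1.5-fold change 72 and 40, and with 1 library left out 372 to 3124 and 241 to 1789. At a mean FPKM of 5 or more 496 of 7819 tested genes fell. Directions turned only for genes that did not pass. Pfkm (-0.04) was at 0.026 with TPM, 0.00095 scaled without mitochondrial genes, 0.033 with library weights and -0.14 to 0.10 with 1 library left out (above 0 without int 3-3). Egln1 (0.04) was at -0.013 with quantile normalization, -0.0065 with voom and -0.023 to 0.12 with 1 library left out (below 0 without int 3-2). Ddit4 (-0.0011) was at 0.068 with TPM, 0.039 scaled without mitochondrial genes and -0.033 to 0.028 with 1 library left out (above 0 without int 3-1, int 3-2 or int 2-2). The cause was not tested. Samples with the same replicate number did not deviate together (correlations -0.015, 0.0041 and -0.022), so the block is no pairing. It ended the calls of Hk1, Tpi1, Gapdh, Pgam1, Pkm, Ldha, Pfkfb3, Pdk1 and Slc2a1. Aldoa rests on 79 to 120 fragments a library.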
